A study of Mus musculus with 6 samples.

Results

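The miR-148 and miR-152 family comprises the mature miRNAs made from the mouse hairpins Mir148a, Mir148b and Mir152. Its members were taken by name: every row of the deposited miRNA table called mmu-miR-148a, mmu-miR-148b or mmu-miR-152, with either arm suffix. This gave the abundant arms mmu-miR-148a-3p, mmu-miR-148b-3p and mmu-miR-152-3p and their 5p partners, 6 mature arms of the 1277 miRNAs listed, and all 6 were among the 885 miRNAs that were abundant enough to be tested. The small RNA came from cells isolated from mouse urinary bladder. The CYP group, 3 libraries, came from mice given 4 intraperitoneal doses of 80 mg/kg cyclophosphamide, an alkylating drug that injures the bladder lining through a breakdown product in urine, on days 2, 4, 6 and 8. Its labels place it 8 days after induction. The Control group, 3 libraries, came from animals that the labels call naïve and describe as injected intraperitoneally with saline. Both groups are described as 8 weeks old, and both were made into libraries from 100 ng of total RNA. The labels give no strain or sex and do not tie a library to an animal. The p-values therefore reflect how far these libraries scatter, a scatter that may be technical. The comparison of CYP with Control asks which miRNAs differ in bladder cells after the drug.

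A miRNA guides an Argonaute protein to mRNAs that pair with its seed (bases 2 to 8 from its 5′ end), and the matched mRNAs are repressed. Each hairpin yields one mature strand from its 5′ side (5p) and one from its 3′ side (3p), and usually only one of them is loaded and kept in quantity. The 3p arms of this family share a seed and therefore largely a set of targets. The best studied of these is the maintenance DNA methyltransferase DNMT1, repressed by miR-148a and miR-152 in human cells, and in mouse miR-148a restrains the removal of self-reactive B cells.

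The 3p sequences are shown to compare their seeds, which are in capitals (RefSeq, GRCm38.p6, the assembly known as mm10, 5′ to 3′).
miR-148a-3p: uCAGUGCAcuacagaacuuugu
miR-148b-3p: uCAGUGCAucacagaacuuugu
miR-152-3p: uCAGUGCAugacagaacuugg
All 3 carry the seed CAGUGCA. Counting from 1 at the 5′ end and over the bases both sequences have, miR-148a-3p and miR-148b-3p differ at 2 positions (C9U and U10C, the base of miR-148a-3p first). miR-148b-3p and miR-152-3p differ at 2 of 21 positions (C10G and U20G, the base of miR-148b-3p first), and miR-148a-3p and miR-152-3p at 3 (C9U, U10G and U20G, the base of miR-148a-3p first). No source used here says how the counting divided reads between sequences this similar, and the split between the 3p arms is uncertain to that extent.

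The hairpins are shown whole because both arms were counted, with the 5p arm and then the 3p arm in capitals.
Mir148a: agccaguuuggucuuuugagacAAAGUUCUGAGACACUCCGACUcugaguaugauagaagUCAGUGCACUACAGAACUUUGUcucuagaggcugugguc
Mir148b: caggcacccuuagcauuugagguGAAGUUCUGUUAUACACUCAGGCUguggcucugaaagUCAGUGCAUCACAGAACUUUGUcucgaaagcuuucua
Mir152: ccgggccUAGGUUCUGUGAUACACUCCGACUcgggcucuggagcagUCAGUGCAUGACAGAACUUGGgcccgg
Mir148a lies at chr6:51269812-51269910 on the minus strand and overlaps no other gene in the GENCODE M21 annotation. The nearest protein-coding gene, Nfe2l3, is 162760 bases away. Mir148b lies at chr15:103285125-103285221 on the plus strand, in an intron of Copz1 and on its strand. Mir152 lies at chr11:96850393-96850465 on the plus strand, in an intron of Copz2 and on its strand. Copz1 and Copz2 encode zeta subunits of coatomer, the coat of vesicles that travel between the Golgi and the endoplasmic reticulum, so these hairpins sit in paralogous host genes. The 5p arms of miR-148a and miR-148b share the seed AAGUUCU, while that of miR-152-5p is AGGUUCU.

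The libraries held 15570284 to 19411556 reads in CYP and 14900120 to 19442420 in Control, and the miRNA table held 9403147 to 11454264 and 9110719 to 12180739 UMIs (unique molecular identifiers, tags that let copies of one captured molecule be counted once) per library. Levels are given as CPM, UMI counts scaled to a common library total after correction between libraries by the trimmed mean of M values (TMM). Reads too short to be counted made up 12.8% to 15.6% of CYP reads and 6.74% to 11.7% of Control reads, and tRNA reads made up 3.93% to 4.89% in CYP and 4.64% to 12.9% in Control, with the highest share in Control replicate 1. Marker miRNAs of urothelium and of bladder muscle were present in every library. The 7 epithelial markers (the miR-200 family, miR-205-5p and miR-203-3p) summed to between 46592 and 50822 CPM in CYP and between 46318 and 48576 CPM in Control, and no marker of any list was at 0 throughout. Of the 7, miR-429-3p was called higher and miR-203-3p lower (log2 fold changes 0.35 and −0.35, edgeR adjusted p = 0.0137 and 0.0173). The call of miR-429-3p was lost without CYP replicate 1 (0.28) or Control replicate 3 (0.35) and with upper-quartile factors (0.23), and that of miR-203-3p without Control replicate 2 (−0.28) and with library totals (−0.24). Of the other marker lists, 3 of 4 erythroid and 1 of 6 leukocyte miRNAs were called lower, against 5.65% of all 885 tested miRNAs. None of 4 striated muscle, 2 endothelial or 2 liver miRNAs was called. The marker lists were chosen with earlier results of these data known, so these counts are not independent of them.

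None of the 6 arms passed the test between CYP and Control, in a comparison that called 109 of 885 miRNAs (12.3%). The called miRNAs had an adjusted p below 0.05 in edgeR's quasi-likelihood test with Benjamini-Hochberg adjustment over all 885. That count was 58 without CYP replicate 1 and 62 without Control replicate 3. miR-152-3p, the most abundant arm, averaged 4009 ± 402 CPM in CYP and 4560 ± 234 CPM in Control (SD, n = 3 each). miR-148a-3p averaged 3160 ± 350 CPM in CYP and 3298 ± 84.6 CPM in Control, and miR-148b-3p 871 ± 64.3 CPM in CYP and 814 ± 42.2 CPM in Control. Within the family, miR-152-3p made up a smaller share, and miR-148b-3p a larger one, in every CYP library than in any Control library. No share passed its exact permutation test (adjusted p = 0.143). With 3 libraries against 3 that test cannot give a p below 0.1, so it could not have passed at 0.05. Among all pairs of abundant miRNAs, 50.1% had ratios that separated the groups in the same way. The median log2 fold change over the 6 arms was 0.01, against 0.02 over all tested miRNAs, and 4 of the 6 lay above 0, as did 467 of the 885.

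miR-152-3p had 48056, 45503 and 36630 UMIs in CYP replicates 1, 2 and 3, against 47454, 41216 and 52614 UMIs in Control replicates 1, 2 and 3. Scaled, these were 4111, 4350 and 3566 CPM in CYP and 4754, 4627 and 4300 CPM in Control. The groups overlapped, since CYP replicate 2 lay above Control replicate 3, but each CYP library lay below the Control library of the same number. Its log2 fold change was −0.19 ± 0.09 (SE), with a 95% interval of −0.38 to 0.01 and an edgeR adjusted p of 0.241. As a fold of CYP over Control, that interval runs from 0.767 to 1.01. The authors' deposited table gives a CYP to Control fold of 0.85 for miR-152-3p, with an unadjusted p of 0.0226. This was the lowest p that the authors' deposited table gives for the 6 arms, and it is not adjusted for the number of miRNAs.

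Marker miRNAs of fibroblasts and smooth muscle are set beside miR-152-3p. The 6 fibroblast markers summed to between 43817 and 51314 CPM in CYP and between 57594 and 60895 CPM in Control, with 3 called lower and 3 not called, against 5.65% called lower over all tested miRNAs. The called ones were miR-29a-3p, miR-29c-3p and miR-199b-5p (−0.57 on the log2 scale). The call of miR-199b-5p was lost with library totals (−0.45) and without CYP replicates 1 or 2 (−0.46 and −0.48). It was also lost without Control replicates 2 or 3 (−0.59 and −0.53). Those not called were miR-199a-3p, counted together with miR-199b-3p (−0.26), miR-199a-5p (−0.13) and miR-214-3p (0.03). miR-29a-3p and miR-29c-3p also stand in the list of DNA methyltransferase repressors given below. Their relative miR-29b-3p, which the fibroblast list leaves out, was not called (−0.22, edgeR adjusted p = 0.121). The list was chosen with earlier results of these data known, so its share of called miRNAs is not independent of them. The 4 smooth muscle markers, led by miR-143-3p, summed to between 235119 and 264115 CPM in CYP and between 262870 and 306869 CPM in Control, and none was called. No defining marker of either list was at or near 0. Striated muscle markers summed to between 36583 and 38078 CPM in CYP and between 38618 and 44761 CPM in Control. For leukocyte markers the sums were 4262 to 4847 CPM in CYP and 5204 to 5392 CPM in Control. Erythroid sums were 324 to 353 CPM in CYP and 475 to 614 CPM in Control. The groups did not overlap in these sums or the fibroblast sums, but did in those of the other lists. The part of any marker list in the level of miR-152-3p was not tested. In these bulk libraries, fewer cells of a type and less of a miRNA per cell cannot be told apart.

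miR-148a-3p had 38201, 36019 and 28449 UMIs in the 3 CYP libraries and 33535, 29683 and 39173 UMIs in the 3 Control libraries. Its CPM were 3268, 3443 and 2770 in CYP and 3359, 3332 and 3201 in Control. CYP replicate 2 was the highest of all 6 libraries and CYP replicate 3 the lowest, so the CYP range enclosed the Control range, and the CYP spread (a coefficient of variation of 11.1%) exceeded that of Control (2.57%). The log2 fold change was −0.06 ± 0.09 (95% interval −0.26 to 0.14, edgeR adjusted p = 0.762). Its sign changed with the scaling: it was 0.05 with library totals and −0.18 with upper-quartile factors. The median of all tested miRNAs was 0.14 and −0.10 with these scalings, so relative to that median miR-148a-3p lay slightly below in both.

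miR-148b-3p had 10427, 9647 and 8206 UMIs in the 3 CYP libraries and 8585, 7164 and 9511 UMIs in the 3 Control libraries. In CPM it stood at 892, 922 and 799 in CYP and at 860, 804 and 777 in Control. Each CYP library lay above its same-numbered Control library, and the groups overlapped because CYP replicate 3 lay below Control replicates 1 and 2. The log2 fold change was 0.10 ± 0.08 (95% interval −0.09 to 0.29, edgeR adjusted p = 0.551). It was 0.21 with library totals and turned to −0.02 with upper-quartile factors. Those scalings placed the median of all tested miRNAs at 0.14 and −0.10, so relative to that median miR-148b-3p lay slightly above in both.

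**Figure D1:**
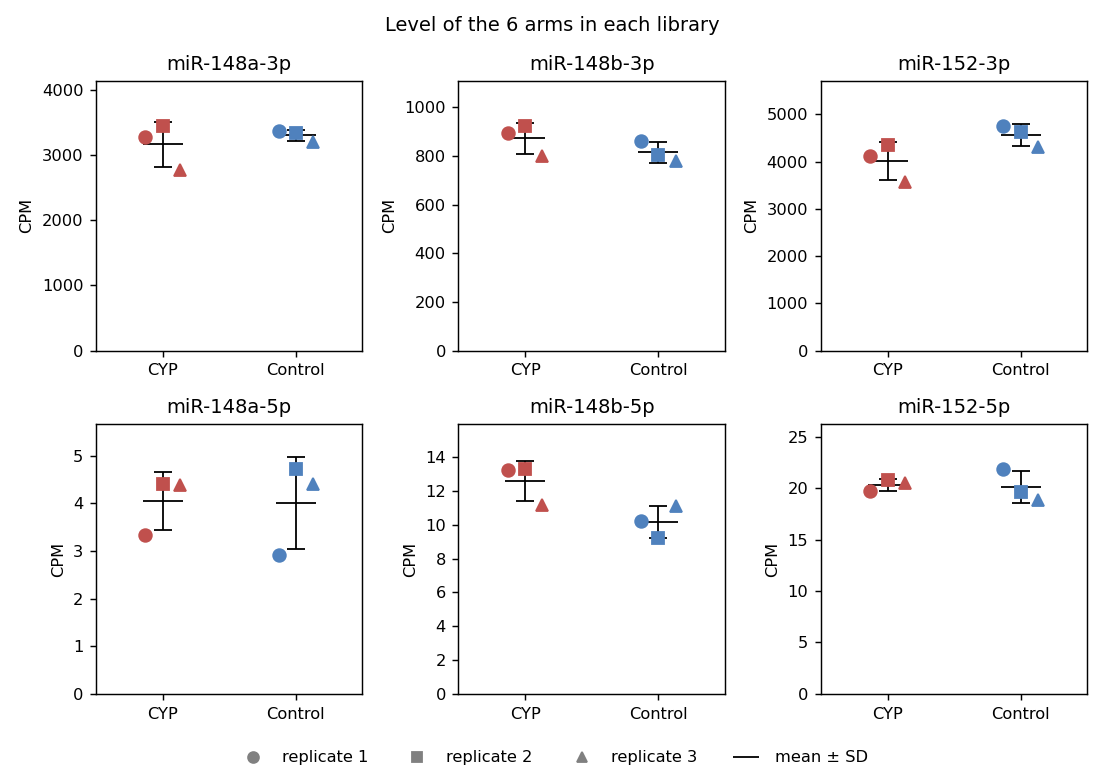
CPM (TMM-scaled, linear axes from 0) of each arm in the 3 CYP and 3 Control libraries, with marker shapes for the replicate number and bars for the mean ± SD. The groups overlap for all arms except miR-148b-5p, and CYP replicate 3 is the lowest CYP library for each 3p arm.

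The 5p arms, the strands that are mostly discarded, were rare. miR-152-5p averaged 20.3 ± 0.567 CPM in CYP and 20.1 ± 1.54 CPM in Control, miR-148b-5p 12.6 ± 1.20 CPM in CYP and 10.2 ± 0.955 CPM in Control, and miR-148a-5p 4.04 ± 0.608 CPM in CYP and 4.01 ± 0.969 CPM in Control (SD, n = 3 each). miR-148b-5p was the one arm whose groups did not overlap, with 13.3, 13.3 and 11.2 CPM in CYP and 10.2, 9.21 and 11.1 CPM in Control. That happened for 30.2% of all tested miRNAs, and CYP replicate 3 and Control replicate 3 were nearly level. Its log2 fold change was 0.30 ± 0.14 (95% interval −0.01 to 0.61, edgeR adjusted p = 0.216), from 155, 139 and 115 UMIs in CYP and 102, 82 and 136 UMIs in Control. For miR-152-5p the log2 fold change was 0.01 ± 0.12 (95% interval −0.24 to 0.27, edgeR adjusted p = 0.977).

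miR-148a-5p rested on 39, 46 and 45 UMIs in CYP and 29, 42 and 54 UMIs in Control. The exact Poisson 95% interval of the lowest count, 29 in Control replicate 1, runs from 19.4 to 41.6, and that of the highest, 54 in Control replicate 3, from 40.6 to 70.5, for counting error only. Its log2 fold change of 0.01 ± 0.23 has a 95% interval of −0.50 to 0.51 (edgeR adjusted p = 0.999). As a fold that interval runs from 0.708 to 1.42, so a change within these bounds is not excluded.

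**Figure D2:**
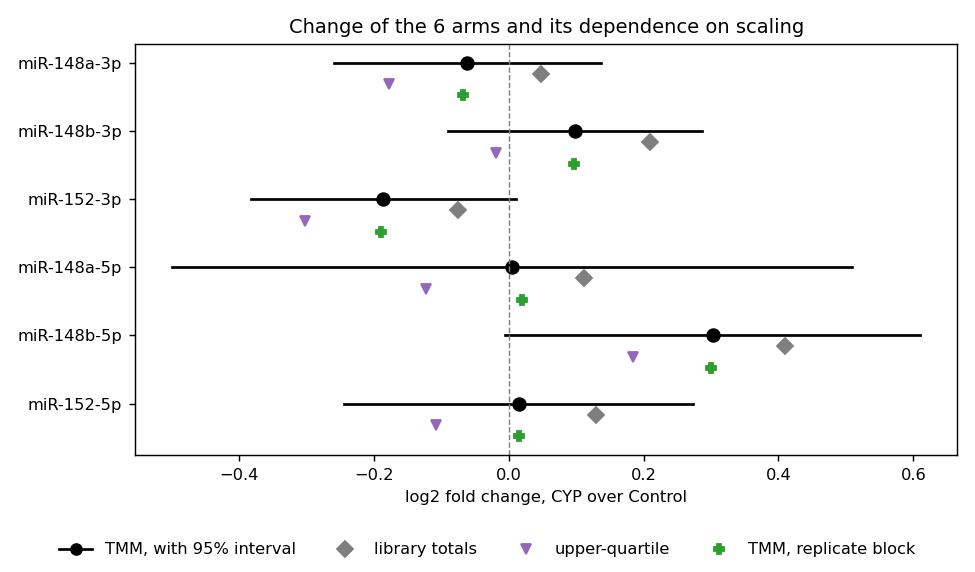
Log2 fold change of CYP over Control for each arm (edgeR, TMM scaling) with its 95% interval, and below it the same value with library totals, with upper-quartile factors and with the replicate number as a block. All 6 intervals include 0, and the scaling moves each arm sideways by a similar amount, which carries 4 of the 6 across 0.

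The 3p arms of the family together took 0.779% to 0.879% of all miRNA UMIs in CYP libraries and 0.812% to 0.857% in Control libraries. Their summed level was 8272, 8716 and 7135 CPM in CYP and 8973, 8763 and 8278 CPM in Control. CYP replicate 2 lay above Control replicate 3, so the groups overlapped, and the means, 8041 ± 815 CPM in CYP and 8672 ± 357 CPM in Control, were not separated beyond that spread (exact two-sided permutation p = 0.2, adjusted p = 0.222 over 10 such tests). Each CYP library lay below its same-numbered Control library, and the difference in means of −631 CPM was −178 without CYP replicate 3 and −968 without CYP replicate 2. With 3 libraries against 3 that test cannot give a p below 0.1. On library totals alone the difference was 5.40 CPM with the opposite sign, so no direction can be given for the family as a whole.

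Within the family, miR-152-3p took the largest part. It made up 49.7%, 49.9% and 50.0% of the 3p UMIs in the CYP libraries and 53.0%, 52.8% and 51.9% in the Control libraries. miR-148a-3p made up 39.5%, 39.5% and 38.8% in CYP and 37.4%, 38.0% and 38.7% in Control. miR-148b-3p made up 10.8%, 10.6% and 11.2% in CYP and 9.58%, 9.18% and 9.39% in Control. CYP and Control did not overlap in any of these shares, although for miR-148a-3p the lowest CYP library and the highest Control library were close. For comparison, the ratio of 2 miRNAs did not overlap between the groups in 50.1% of all pairs of at least 100 CPM, so the lack of overlap is not a result about the family. These shares are formed inside each library, so scaling between libraries cannot move them.

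In mean values the share of miR-152-3p was 49.9 ± 0.145% in CYP and 52.6 ± 0.555% in Control, a difference of −2.71 percentage points (SD, n = 3 each). That of miR-148b-3p was 10.9 ± 0.314% in CYP and 9.38 ± 0.204% in Control, a difference of 1.47 points. That of miR-148a-3p was 39.3 ± 0.398% in CYP and 38.0 ± 0.617% in Control, a difference of 1.24 points. Each gave p = 0.1 in the exact permutation test, the smallest it can give, and an adjusted p of 0.143 over the 10 tests, so none passed a threshold of 0.05. The 3 shares sum to 100% and are not independent of each other.

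The log2 ratios of the arms show the same balance member by member. The ratio of miR-148b-3p to miR-152-3p was −2.20, −2.24 and −2.16 in CYP and −2.47, −2.52 and −2.47 in Control. Its means differed by 0.29, more than the SD of 0.04 in CYP and of 0.03 in Control. The ratio of miR-148a-3p to miR-152-3p was −0.33, −0.34 and −0.36 in CYP and −0.50, −0.47 and −0.43 in Control, a difference of 0.12. The ratio of miR-148b-3p to miR-148a-3p was −1.87, −1.90 and −1.79 in CYP and −1.97, −2.05 and −2.04 in Control, a difference of 0.16. Each of the 3 ratios was higher in all CYP libraries than in any Control library (exact permutation p = 0.1, adjusted p = 0.143). Such a separation was common: it held for 50.1% of the 14535 pairs that can be formed from the 171 miRNAs with at least 100 CPM, so the separation of these 3 ratios is not particular to the family.

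**Figure D3:**
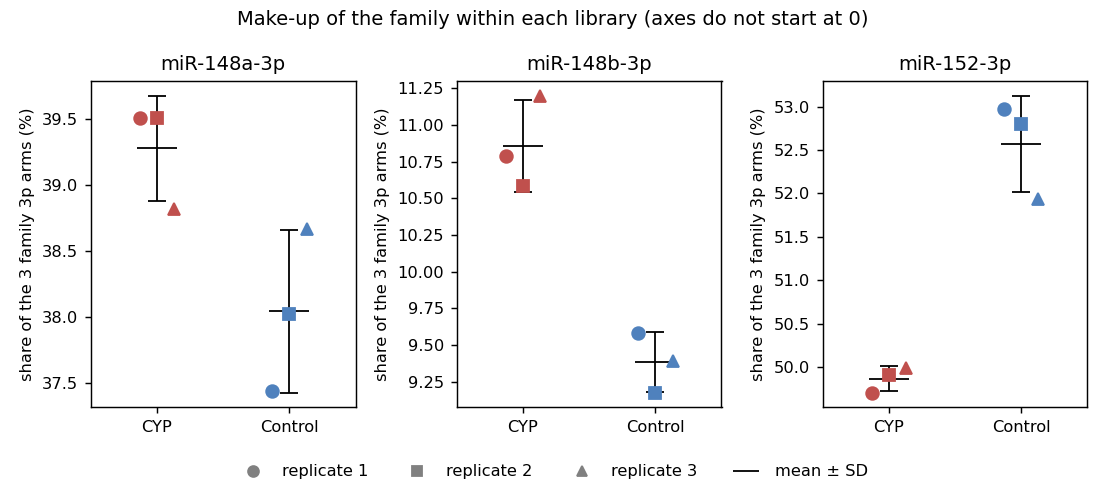
Share of each 3p arm in the UMIs of the 3 family 3p arms, in percent, for each library, with the mean ± SD. The axes do not start at 0. CYP and Control libraries do not overlap in any panel: miR-148a-3p and miR-148b-3p take a larger share in CYP and miR-152-3p a smaller one.

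The arm balance differed between the hairpins by more than it differed between the groups. The 5p arm made up 0.102% to 0.158% of the UMIs of Mir148a in CYP and 0.0864% to 0.141% in Control. For Mir152 it was 0.475% to 0.573% in CYP and 0.423% to 0.457% in Control, and for Mir148b 1.38% to 1.46% in CYP and 1.13% to 1.41% in Control. In the 6 libraries the order was the same, with Mir148b keeping the most 5p strand and Mir148a the least, and the ranges of the hairpins did not meet.

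The log2 ratio of 3p to 5p did not overlap between the groups for 1 of the 3 hairpins, Mir152, against 26.4% of the 227 hairpins with both arms tested, so this is near the background. For Mir152 the log2 ratio of 3p to 5p was 7.71, 7.71 and 7.44 in CYP and 7.77, 7.88 and 7.83 in Control, a difference of −0.21 between the means (exact permutation p = 0.1, adjusted p = 0.143). CYP replicates 1 and 2 lay close to Control replicate 1, and CYP replicate 3 stood lowest, with a difference of −0.12 when it was left out. For Mir148b the ratio was 6.12 ± 0.0426 in CYP and 6.32 ± 0.172 in Control, a difference of −0.21 with overlapping groups (exact permutation p = 0.2), and for Mir148a it was 9.62 ± 0.316 in CYP and 9.71 ± 0.400 in Control (exact permutation p = 0.7, SD, n = 3 each).

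In order of level, miR-152-3p ranked 43rd and miR-148a-3p 48th of the tested miRNAs by mean CPM over the 6 libraries, and miR-148b-3p ranked 81st. miR-152-3p exceeded miR-148a-3p in each library, and both exceeded miR-148b-3p by more than the spread over libraries. miR-152-3p stood between miR-10b-5p (4288 CPM) and miR-196b-5p (3933 CPM), at 4285 CPM. miR-148a-3p, at 3229 CPM, stood between miR-93-5p (3245 CPM) and miR-22-3p (3186 CPM), and miR-148b-3p, at 842 CPM, between miR-130a-3p (849 CPM) and miR-28a-3p (823 CPM). Each of these differences between neighbours is smaller than the SD of the member over the CYP libraries. Sequencing counts of different miRNAs also carry ligation differences that were not measured here.

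**Figure D4:**
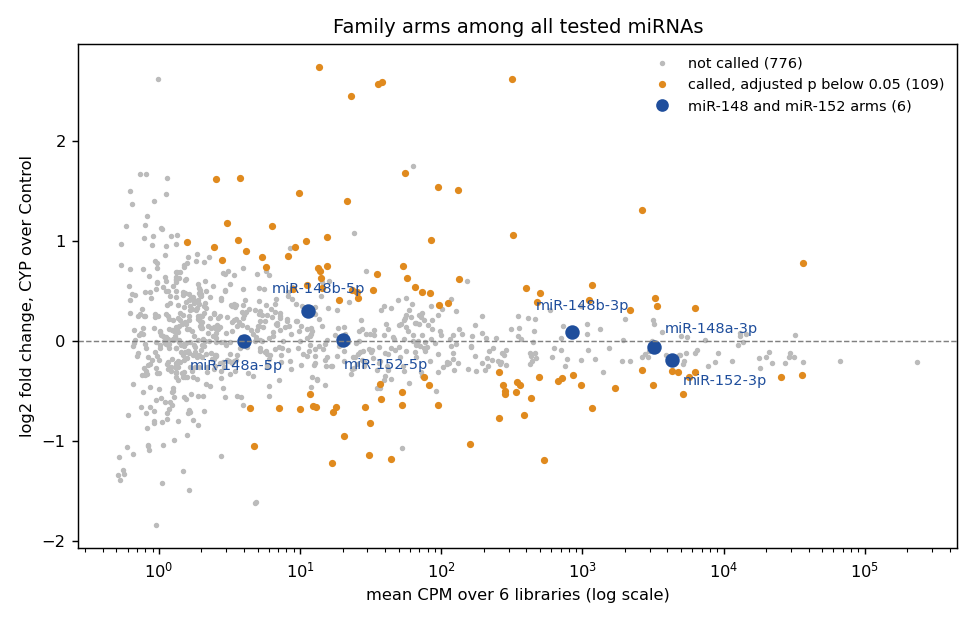
Log2 fold change of CYP over Control against mean CPM (log axis) for all 885 tested miRNAs, with the 109 called ones in orange and the 6 family arms in blue. The 3p arms lie at high levels and within 0.19 of 0, and no blue point is a called miRNA.

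Other miRNAs had profiles nearer to a family member than its relatives did. Likeness was taken as the root mean square difference of log2 CPM, each centred on its own mean, over the 6 libraries and among 168 other miRNAs of at least 100 CPM. Nearest to miR-152-3p were miR-196b-5p (0.0286), miR-143-3p of smooth muscle (0.0335) and miR-30c-2-3p (0.0350), against 0.0658 for miR-148a-3p. Nearest to miR-148a-3p were miR-196a-5p (0.0298), miR-192-5p (0.0361) and miR-196b-5p (0.0462), against 0.0658 for miR-152-3p. Nearest to miR-148b-3p were the epithelial miR-200a-3p (0.0396), miR-191-5p (0.0468) and the epithelial miR-200b-3p (0.0468), against 0.0920 for miR-148a-3p. Set among the 168, miR-152-3p would rank 7th nearest to miR-148a-3p. miR-148a-3p would rank 18th nearest to miR-152-3p and 22nd nearest to miR-148b-3p. The distance between miR-148b-3p and miR-152-3p was 0.146. The median distance to the 168 miRNAs was between 0.159 and 0.174. All these values share the libraries and their scaling, and they are a description only.

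Some miRNAs carry the letters AGUGCA of the family seed one base further towards the 5′ end or beside other letters. Among the 1097 of 1277 rows with a RefSeq mature sequence, 6 miRNAs outside the family held AGUGCA within bases 2 to 8, and 4 of them were tested. Over all tested miRNAs, 6.67% were called higher and 5.65% lower, or 59 and 50 miRNAs. The split moved to 78 higher and 29 lower with library totals, 37 and 95 with upper-quartile factors and 57 and 79 in DESeq2. The sequences of the main ones are shown for the shift of the seed, in capitals.
miR-130a-3p: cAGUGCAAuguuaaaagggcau
miR-301a-3p: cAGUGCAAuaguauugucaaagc
miR-130b-3p: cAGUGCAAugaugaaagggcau
These 3 belong to the miR-130 and miR-301 family, in which AGUGCA starts at base 2, against base 3 in the miR-148 and miR-152 family. miR-301a-3p rose, with 540 ± 44.2 CPM in CYP and 412 ± 28.6 CPM in Control (log2 fold change 0.39 ± 0.09, edgeR adjusted p = 0.0197). That call was lost with upper-quartile factors (0.26), without CYP replicate 1 (0.40) and without Control replicate 3 (0.32). miR-130b-3p also rose, with 12.2 ± 1.72 CPM in CYP and 6.31 ± 0.363 CPM in Control (log2 fold change 0.94 ± 0.15, edgeR adjusted p = 0.00294). miR-301b-3p, by name of the same family, had no RefSeq sequence here and is outside these counts. At a mean of 2.80 CPM over the 6 libraries, it was also called higher (log2 fold change 0.82 ± 0.20, edgeR adjusted p = 0.0231). miR-130a-3p, at the level of miR-148b-3p, had 866 ± 61.3 CPM in CYP and 831 ± 34.3 CPM in Control (log2 fold change 0.06 ± 0.08, −0.07 with upper-quartile factors, edgeR adjusted p = 0.741; SD, n = 3 each).

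Other miRNAs known, mostly from human cells, to repress DNA methyltransferases were taken as a list of 8. Of these 3 were called lower, none was called higher and 5 were not called, against 5.65% called lower over all miRNAs. The median log2 fold change of the list was −0.21 against 0.02 over all miRNAs, and 5 of the 8 also stand in the cell marker lists. This list too was chosen with earlier results of these data known, so its counts are not independent of them. The miR-29 family represses the de novo enzymes DNMT3A and DNMT3B. miR-29a-3p fell, with 22462 ± 1677 CPM in CYP and 28737 ± 930.1 CPM in Control (log2 fold change −0.36 ± 0.08, edgeR adjusted p = 0.0139), a call that was lost without CYP replicate 1, where the log2 fold change was also −0.36 (edgeR adjusted p = 0.0616). miR-29c-3p fell by 0.31 ± 0.08 on the log2 scale (edgeR adjusted p = 0.0366), and its call held in 7 of 14 alternatives. It was lost without CYP replicates 1 or 3 (−0.29 and −0.28) or Control replicates 1 or 3 (−0.28 and −0.32). The call was also lost with library totals (−0.20), a mean of at least 10 CPM (−0.24) and read counts (−0.30). miR-101a-3p fell by 0.53 ± 0.08 (edgeR adjusted p = 0.00211), although its reads are uncertain because near-identical copies are listed. The most abundant of those not called were miR-143-3p (−0.20 ± 0.09) and miR-126a-3p (−0.11 ± 0.08, 0.00 with library totals). Also not called were miR-29b-3p (−0.22 ± 0.08) and miR-342-3p (−0.18 ± 0.08). miR-185-5p, not called either, lay higher in CYP (0.24 ± 0.09, edgeR adjusted p = 0.117). miR-152-3p, itself a repressor of DNMT1 in human cells, had a log2 fold change close to those of miR-143-3p and of the list's median.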

How the data were processed

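Small RNA libraries of 3 CYP and 3 Control samples were analysed. The deposited table gives whole-number counts of UMIs and of reads per miRNA, not normalized, per the file headers. A deposited summary gives read counts per class of RNA. The authors' deposited fold table gives a ratio (fold change, CYP over Control) and an unadjusted p-value, with DESeq2 as its normalization, per the file headers. The submitters' processing notes name STAR 2.6, FastQC 0.11.7, Trim Galore and DESeq2, and the mm10 build. No source used here says which tool counted the miRNAs.

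UMI counts of all miRNAs were fitted together with edgeR 4.0.16 in R 4.3.3 (TMM scaling, robust quasi-likelihood test of the group term, Benjamini-Hochberg adjustment, calls at 0.05). The default filter asked for a count of 10, scaled to library size, in as many libraries as the smaller group holds. It also asked for a total count of 15. The script was tested on simulated data. DESeq2 1.42.0, other scalings, filters, read counts, a replicate block and leaving out each library were alternatives. Shares and ratios within a library went through an exact permutation test over libraries, two-sided. Same-numbered libraries deviated together from their group means (correlations of 0.511, 0.333 and 0.381 over 378 miRNAs), a pairing that comes from the title numbers and these correlations and that no label explains. Lone counts carry counting error only in their intervals. Genome positions are those of GENCODE M21 and RefSeq for GRCm38, and all 6 arms matched a RefSeq sequence.

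Named miRNAs were the 6 arms, the seed relatives, the list of DNA methyltransferase repressors, the 3 nearest profiles per 3p arm and its neighbours in level. The members and lists were chosen with earlier results of these data known, and the ratios between 3p arms were added after the data were seen.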

Additional observations from a re-analysis of the deposited data

How the results depend on the processing

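No arm of the family was called in any of the alternatives run, with edgeR adjusted p between 0.0754 (miR-148b-3p with library totals) and 0.998 (miR-152-5p with no filter). miR-152-3p stayed below 0 (−0.30 to −0.08) and miR-148b-5p above 0 (0.18 to 0.41) in their 14 alternatives. With the replicate block, miR-152-3p gave −0.19 (edgeR adjusted p = 0.102) and the count of called miRNAs was 142, and the block changed the call of none of the 6 arms. Signs turned as follows, and the cause was not tested. miR-148a-3p was 0.0475 with library totals and 0.00977 with a mean of at least 10 CPM. miR-148b-3p was −0.0195 and miR-152-5p −0.11 with upper-quartile factors. miR-148a-5p was −0.00998 with RLE factors, −0.00931 in DESeq2, −0.00811 with no filter and −0.12 with upper-quartile factors. The summed 3p level differed by 5.40 CPM on library totals. miR-130a-3p turned to −0.0668 with upper-quartile factors, and miR-126a-3p to 0.000352 with library totals.

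Leaving out each library gave −0.10 to 0.0298 for miR-148a-3p, 0.05 to 0.16 for miR-148b-3p, −0.24 to −0.10 for miR-152-3p, −0.19 to 0.14 for miR-148a-5p, 0.25 to 0.38 for miR-148b-5p and −0.0425 to 0.0668 for miR-152-5p. miR-148a-3p was positive without CYP replicate 3 and miR-152-5p negative without Control replicate 3. The difference between CYP and Control in the log2 3p to 5p ratio of Mir148a ranged from −0.26 to 0.13. It was positive without CYP replicate 3 (0.06) or Control replicate 1 (0.13). The count of called miRNAs ranged from 58 without CYP replicate 1 to 139 without CYP replicate 3, and was 62 without Control replicate 3. The difference in summed 3p level ranged from −968 to −178 CPM. The differences in share ranged from −3.02 to −2.50 points for miR-152-3p, 1.30 to 1.61 for miR-148b-3p and 0.932 to 1.55 for miR-148a-3p. miR-148a-5p has no value at a mean of at least 10 CPM, where it is not kept. Its 29 to 54 UMIs per library are the lowest depth behind any arm.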
